A study of Mus musculus with 16 samples.

Results

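The tubulin genes described here are 9 rows of a table of 24019 mouse genes, picked out by their symbols, 4 for alpha-tubulins (Tuba1a, Tuba1b, Tuba1c and Tuba4a) and 5 for beta-tubulins (Tubb2a, Tubb2b, Tubb4b, Tubb5 and Tubb6). These genes, and the lists of related genes used later, were chosen with earlier results of the same data known. Their counts beside the shares of all tested genes are therefore descriptions. RNA of whole pancreas was counted by unique molecular identifiers (UMIs, random tags that let each captured RNA molecule be counted once) in 16 mice. The groups were Adam17ex mice given cerulein, WT mice given cerulein, Adam17ex mice given PBS and WT mice given PBS, with 4 mice in each. Adam17ex stands for Adam17ex/ex animals, in which the gene of the membrane protease ADAM17 is hypomorphic in all cells, and WT for C57BL/6J wild-type littermates. Mice of both genotypes were 6 to 8 weeks old. Cerulein, an analogue of the hormone cholecystokinin that overstimulates acinar cells and causes acute pancreatitis, was injected hourly 7 times at 50 µg per kg, the controls received phosphate-buffered saline (PBS), and all pancreata were taken 1 h after the last injection. Cerulein pancreatitis in mice is a short and mostly sterile model of the disease, and the samples were bulk tissue. Among cerulein-treated mice 2 of the Adam17ex and 1 of the WT animals were male, and among PBS-treated mice 2 of the Adam17ex and 0 of the WT animals.

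Microtubules are polymers of dimers made of 1 alpha- and 1 beta-tubulin, and mammals encode each subunit in several genes, called isotypes, that differ mostly in their last residues. In pancreatic acinar cells microtubules carry zymogen granules toward the apical membrane, and spindles of dividing cells are built from the same dimers. Cells are known to adjust tubulin mRNA to the amount of free dimer: when free tubulin is abundant, the factor TTC5 recognises the first residues of a tubulin emerging from the ribosome and has the mRNA degraded.

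The start of the coding sequence is shown because that control acts through it. The lines below give its first 30 bases, 5′ to 3′, from the spliced transcripts of GENCODE M21, with the 12 bases of the first 4 codons in capitals.
Tuba1a: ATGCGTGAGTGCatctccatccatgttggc
Tuba1b: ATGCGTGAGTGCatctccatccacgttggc
Tuba1c: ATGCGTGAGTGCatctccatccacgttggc
Tuba4a: ATGCGCGAGTGCatttcagtccatgtgggg
Tubb2a: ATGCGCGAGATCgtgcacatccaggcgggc
Tubb2b: ATGCGAGAGATCgtgcacattcaggcgggc
Tubb4b: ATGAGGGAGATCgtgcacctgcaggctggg
Tubb5: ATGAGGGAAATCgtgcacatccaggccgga
Tuba1a, Tuba1b and Tuba1c shared all 12 capital bases, and Tuba4a differed from them by T6C, with positions counted from 1 at the A of the start codon. Tubb4b differed from Tubb5 by A9G among those bases, and Tubb2a by A4C, G6C and A9G. None of these base changes alters the encoded residues, which are what TTC5 recognises. Tuba1a, Tuba1b and Tuba1c lie close together on chromosome 15 (98949837 to 98953703, 98931425 to 98934565 and 99029891 to 99038110 of GRCm38), and Tubb2a and Tubb2b lie side by side on chromosome 13 (34074274 to 34078007 and 34126748 to 34130466). Tuba4a is on chromosome 1 (75214228 to 75219865), Tubb4b on chromosome 2 (25222160 to 25224702) and Tubb5 on chromosome 17 (35833921 to 35838306).

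Because RNA was primed at the poly(A) tail, the reads of 101 bases come mostly from the last part of each transcript, and there the isotypes are partly identical. Of the 101-base windows in the last 600 bases, 60.6% of Tuba1a, 57.4% of Tuba1b and 69.2% of Tuba1c also occurred in another gene's transcript, mostly in each other and in processed pseudogenes. The share was 36.6% for Tubb2a, all with Tubb2b, and 26.0% for Tubb4b, while Tuba4a, Tubb2b, Tubb5 and Tubb6 had no shared window. How reads that match several genes were counted is not given in the sources used here, so the split of counts among Tuba1a, Tuba1b and Tuba1c is uncertain, as are the values of Tubb2a and, to a lesser degree, Tubb4b. The pseudogene rows with shared windows held few counts, at most 164 UMIs over all 16 libraries, in Gm3226.

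Depth ranged from 455547 to 1476159 UMIs per library, and 3 Adam17ex PBS libraries (replicates 1 to 3) were the shallowest, at 492878, 475952 and 455547. In those 3 libraries 7.84% to 9.02% of UMIs fell on the ribosomal RNA gene CT010467.1, against at most 5.04% in the others. Adam17 itself was counted 2 to 6 times in Adam17ex cerulein, 10 to 27 times in WT cerulein, 1 to 5 times in Adam17ex PBS and 5 to 16 times in WT PBS libraries. All 7 acinar markers were counted in every group, with summed levels of 83318 CPM or more. Replicate 3 of Adam17ex PBS stood apart, with macrophage markers at 1003 CPM against 148 to 334 CPM in the other Adam17ex PBS libraries, and fibroblast and stellate cell markers at 1252 against 427 to 712 CPM. CPM are UMI counts scaled to a common library total, after adjusting the totals by trimmed mean of M-values (TMM) factors. Since each UMI is 1 molecule whatever the transcript's length, CPM of different tubulin genes can be set side by side, within the limits of shared reads. The labels also carry a code of unstated meaning whose values are mostly separate between groups, so anything it stands for cannot be told apart from genotype and treatment.

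Taken over the 9 genes, tubulin transcripts summed to 617 ± 55.2 CPM in Adam17ex cerulein, 965 ± 83.9 CPM in WT cerulein, 304 ± 93.9 CPM in Adam17ex PBS and 410 ± 42.7 CPM in WT PBS pancreas (SD, n = 4 each). The alpha genes made up 442, 598, 201 and 296 CPM of these sums in the same order of groups, and the beta genes 175, 367, 104 and 114 CPM. Cerulein-treated WT mice had the highest sum, and all 4 of them (893 to 1082 CPM) lay above every other library (at most 682 CPM). Whether more cells of a type or more RNA per cell lies behind a difference cannot be told apart in bulk tissue.

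**Figure D1:**
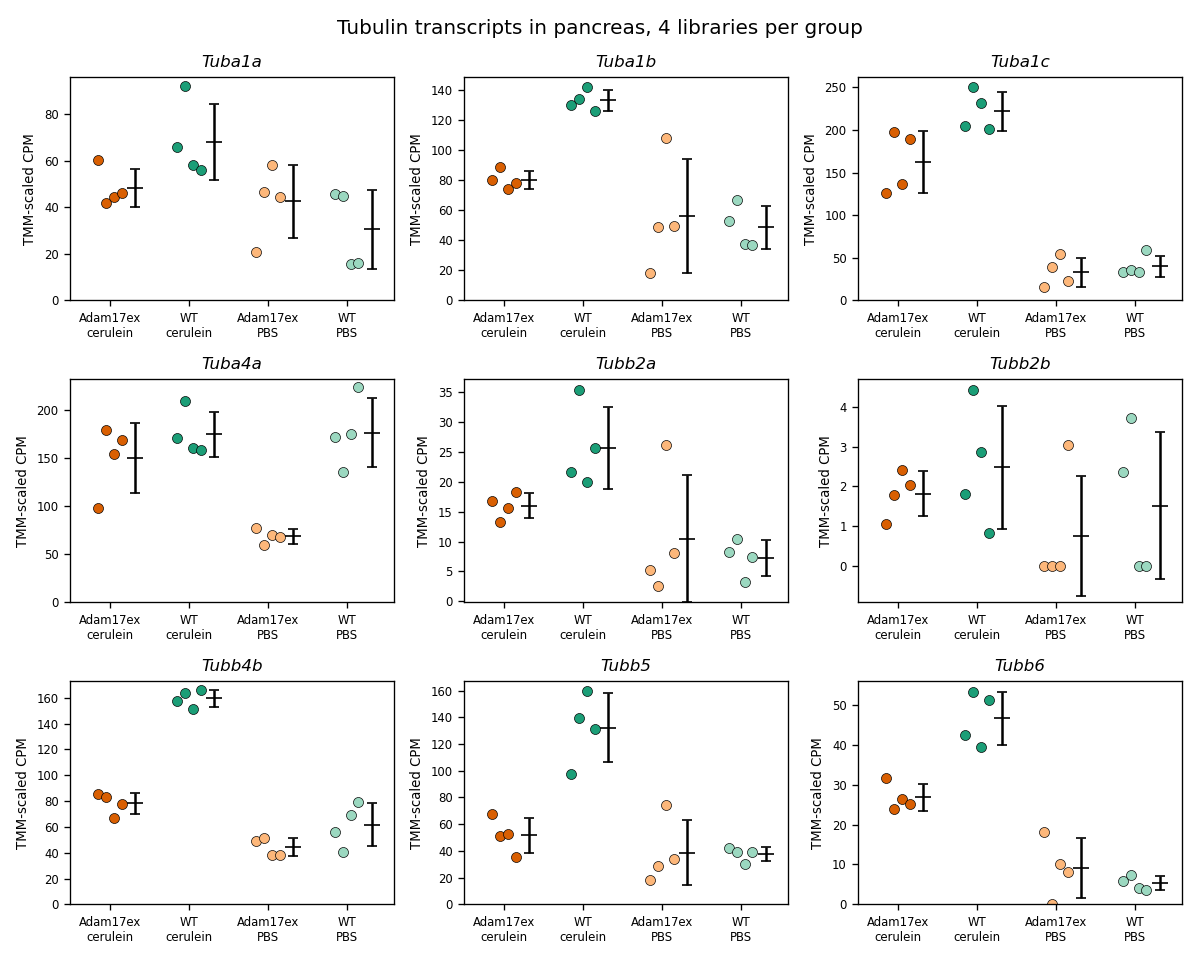
Levels of the 9 tubulin genes in TMM-scaled CPM (y axis, linear) by group (x axis), with 1 point per library and the mean ± SD of 4 libraries beside it. WT cerulein points stand above WT PBS points without overlap for every gene except Tuba4a and Tubb2b, and Tuba4a is lowest in Adam17ex PBS, at 59.4 to 78.0 CPM.

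Of the 4 alpha-tubulin members, Tuba1c, a widely expressed isotype, had the largest change with cerulein in both genotypes. Its level was 126, 197, 137 and 190.0 CPM in Adam17ex cerulein, 204, 250.3, 231 and 202 CPM in WT cerulein, 15.6, 38.7, 54.2 and 23.2 CPM in Adam17ex PBS, and 32.9, 35.7, 33.6 and 58.8 CPM in WT PBS libraries. Every cerulein library exceeded every PBS library of either genotype. The log2 fold change against PBS was 2.33 ± 0.28 (SE) in Adam17ex (edgeR quasi-likelihood test with Benjamini-Hochberg adjustment over 8236 genes, adjusted p = 1.77e-06) and 2.46 ± 0.25 in WT mice (edgeR adjusted p = 8.18e-08). Tuba1b, another widely expressed alpha isotype, was at 80.2, 88.9, 74.4 and 78.3 CPM in Adam17ex cerulein, 130.2, 134, 143 and 126 CPM in WT cerulein, 18.2, 49.1, 108 and 49.5 CPM in Adam17ex PBS, and 52.9, 67.0, 37.8 and 36.8 CPM in WT PBS. In WT mice the treatments did not overlap and Tuba1b rose by 1.41 ± 0.27 (edgeR adjusted p = 0.000246). In Adam17ex mice replicate 3 of the PBS group lay above all cerulein libraries, and the difference of 0.50 ± 0.29 did not pass (edgeR adjusted p = 0.199).

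Tuba1a, best known as the main alpha-tubulin of developing neurons, measured 60.1, 41.8, 44.4 and 46.3 CPM in Adam17ex cerulein, 66.0, 91.9, 58.0 and 56.2 CPM in WT cerulein, 20.8, 46.5, 58.3 and 44.4 CPM in Adam17ex PBS, and 45.8, 44.7, 15.7 and 15.9 CPM in WT PBS. It rose by 1.15 ± 0.30 with cerulein in WT (edgeR adjusted p = 0.00364), and the treatments overlapped in Adam17ex mice, where the log2 fold change was 0.15 ± 0.32 (edgeR adjusted p = 0.750). The WT PBS libraries fell into a high pair (replicates 1 and 2) and a low pair (replicates 3 and 4). The high pair also had the higher lymphocyte marker sums, 143 and 295 CPM against 6.30 and 15.9 CPM in the low pair, and the higher adipocyte marker sums, 208 and 488 against at most 61.3 CPM, and their part in the difference was not tested. The code in the labels is also close within each pair and different between them.

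Tuba4a followed another pattern. This isotype, known for its abundance in platelets and for being made without the terminal tyrosine of other alpha-tubulins, stood at 98.1, 179.5, 155 and 169.6 CPM in Adam17ex cerulein, 171, 209, 161 and 159 CPM in WT cerulein, 78.0, 59.4, 70.3 and 67.7 CPM in Adam17ex PBS, and 173, 136, 175 and 224 CPM in WT PBS. The groups other than Adam17ex PBS overlapped one another, and Adam17ex PBS lay below all of them. Tuba4a rose with cerulein in Adam17ex mice by 1.12 ± 0.21 (edgeR adjusted p = 0.000295), and in WT mice the log2 fold change was -0.05 ± 0.19 (edgeR adjusted p = 0.842).

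Tubb6 had the largest cerulein change of the tested beta-tubulins. It is a divergent isotype known from cultured cells to weaken microtubule networks when abundant. Its level was 31.6, 24.0, 26.4 and 25.2 CPM in Adam17ex cerulein, 42.5, 53.2, 39.4 and 51.3 CPM in WT cerulein, 18.2, 0, 10.0 and 8.08 CPM in Adam17ex PBS, and 5.88, 7.45, 4.20 and 3.68 CPM in WT PBS. The treatments did not overlap in either genotype, although the PBS values rest on only 20 UMIs over the Adam17ex and 22 UMIs over the WT libraries. Tubb6 rose by 1.57 ± 0.37 in Adam17ex (edgeR adjusted p = 0.00283) and by 3.04 ± 0.33 in WT mice (edgeR adjusted p = 2.24e-07). Tubb5, the common class I beta-tubulin of most non-neuronal cells, was at 67.5, 51.5, 52.8 and 35.4 CPM in Adam17ex cerulein, 97.7, 139.5, 159.7 and 131 CPM in WT cerulein, 18.2, 28.4, 74.3 and 34.3 CPM in Adam17ex PBS, and 42.3, 39.5, 30.4 and 39.2 CPM in WT PBS. WT mice showed a gap between the treatments and a rise of 1.81 ± 0.26 (edgeR adjusted p = 1.03e-05). In Adam17ex mice replicate 3 of the PBS group was the highest library of both treatments, and the log2 fold change was 0.38 ± 0.30 (edgeR adjusted p = 0.357).

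Tubb4b, a beta isotype found in most tissues and enriched in cilia, reached 85.5, 83.5, 67.2 and 77.7 CPM in Adam17ex cerulein, 157, 164, 151 and 166 CPM in WT cerulein, 49.4, 51.6, 38.2 and 38.4 CPM in Adam17ex PBS, and 56.4, 41.0, 69.3 and 79.6 CPM in WT PBS. Cerulein libraries were above PBS libraries of their own genotype without overlap, and the log2 fold changes were 0.85 ± 0.21 in Adam17ex (edgeR adjusted p = 0.00367) and 1.40 ± 0.19 in WT mice (edgeR adjusted p = 3.12e-06). Tubb2a, a beta isotype abundant in brain, was low throughout, at 16.9, 13.3, 15.6 and 18.4 CPM in Adam17ex cerulein, 21.7, 35.4, 20.1 and 25.6 CPM in WT cerulein, 5.20, 2.58, 26.1 and 8.08 CPM in Adam17ex PBS, and 8.23, 10.4, 3.15 and 7.35 CPM in WT PBS. It rose in WT mice by 1.73 ± 0.39 (edgeR adjusted p = 0.00116), while in Adam17ex mice the PBS replicate 3 exceeded all cerulein libraries and the change of 0.59 ± 0.44 did not pass (edgeR adjusted p = 0.327). Tubb2b, its close relative in brain, was counted 1, 2, 2 and 3 times in Adam17ex cerulein, 2, 4, 4 and 1 times in WT cerulein, 0, 0, 0 and 3 times in Adam17ex PBS, and 2, 5, 0 and 0 times in WT PBS. With 8, 11, 3 and 7 UMIs in these groups, Tubb2b did not reach the minimum count of 10 used for testing, and a difference was not detectable at this depth.

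Counted over the family, cerulein raised 4 of the 8 tested members in Adam17ex mice, where 30.3% of all tested genes were called in either direction and 14.1% were higher. It raised 7 of 8 in WT mice, against 41.1% of all genes called and 19.8% called higher. No member fell in either genotype, while 16.2% of all tested genes fell in Adam17ex and 21.3% in WT mice. Tubb2a and Tubb6, with 1 to 14 and 0 to 10 UMIs per PBS library, passed the count filter only with the help of their cerulein libraries. Their rises are thus not independent of the filter, which favours counts of raised members. The median log2 fold change of the 8 members was 0.72 in Adam17ex and 1.57 in WT mice, and that of all tested genes -0.03 and -0.04. Members with no overlap between treatments numbered 4 in Adam17ex, where 13.8% of all genes had every cerulein library above every PBS library, and 7 in WT mice, where 19.2% had. The count in Adam17ex mice depends on replicate 3 of the PBS group: without it 7 members were called, with Tuba1b at 1.08 ± 0.26 (edgeR adjusted p = 0.00447), Tubb2a at 1.50 ± 0.44 (edgeR adjusted p = 0.0161) and Tubb5 at 0.98 ± 0.28 (edgeR adjusted p = 0.0117). In WT mice 4 of 5 tested duct cell markers were higher after cerulein and 1 was lower, with summed levels of 977 to 1232 CPM after cerulein and 327 to 370 CPM after PBS. Acinar markers were lower for 4 of 7, at 83318 to 124940 CPM after cerulein and 119760 to 166962 CPM after PBS. Adipocyte markers were lower for 5 of 5 tested, at 1.43 to 24.4 CPM after cerulein, with Plin1 and Lep at 0, and 20.99 to 488 CPM after PBS. The part of these cell types in the tubulin result was not tested.

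**Figure D2:**
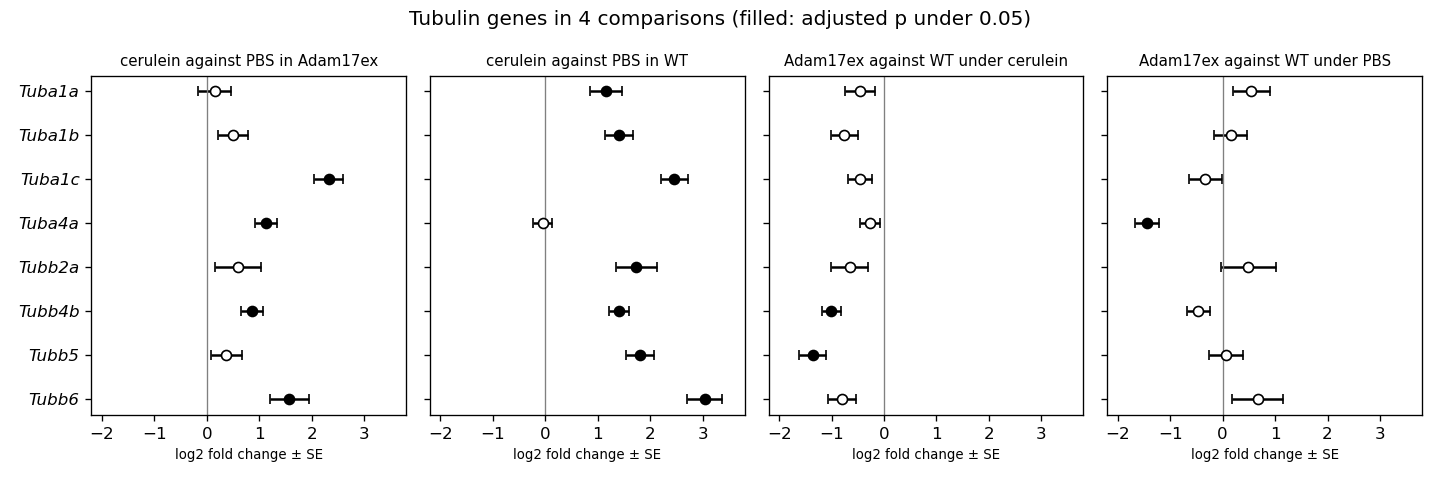
Log2 fold change ± SE of the 8 tested tubulin genes (y axis) in 4 comparisons (panels), with filled points for adjusted p under 0.05 in edgeR's test. Filled points number 4 for cerulein in Adam17ex, 7 for cerulein in WT, 2 between genotypes after cerulein and 1 between genotypes after PBS.

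Under cerulein, Adam17ex pancreas had less Tubb5 and Tubb4b than WT pancreas. Tubb5 differed by -1.36 ± 0.26 on the log2 scale (edgeR adjusted p = 0.00133) and Tubb4b by -1.01 ± 0.18 (edgeR adjusted p = 0.000734), and the genotypes did not overlap for either gene. These 2 of 8 members compare with 9.70% of all tested genes called in either direction and 3.85% called lower. Tubb6 missed the threshold at -0.80 ± 0.26 (edgeR adjusted p = 0.0527) and Tuba1b at -0.76 ± 0.26 (edgeR adjusted p = 0.0706). Tubb6 passed when WT PBS replicate 2 or Adam17ex PBS replicate 1 or 2 was left out (edgeR adjusted p = 0.0451, 0.0404 and 0.0216), and Tuba1b when Adam17ex PBS replicate 1 or 3 was (edgeR adjusted p = 0.0148 and 0.0353). The other 4 members had log2 fold changes of -0.66 ± 0.35 (Tubb2a), -0.46 ± 0.23 (Tuba1c), -0.46 ± 0.28 (Tuba1a) and -0.26 ± 0.19 (Tuba4a), all with edgeR adjusted p of 0.234 or more. All 8 estimates were thus below 0, with a median of -0.71 against 0.01 for all tested genes. For 6 members (Tuba1b, Tuba1c, Tubb2a, Tubb4b, Tubb5 and Tubb6) every Adam17ex library was below every WT library, as it was for 7.92% of all tested genes. Duct markers were lower in the same direction, with 4 of 5 tested markers lower and 1 higher, and sums of 424 to 478 CPM in Adam17ex against 977 to 1232 CPM in WT mice. The 10 neuron and glia markers summed to 8.89 to 22.5 CPM in Adam17ex, with Sox10 at 0, against 31.5 to 68.7 CPM in WT mice. The part of these cell types in the tubulin difference was not tested.

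Under PBS the genotypes differed in Tuba4a alone among the 8 tested members. Its log2 fold change was -1.44 ± 0.22 (edgeR adjusted p = 0.00329), with group means of 68.9 ± 7.69 CPM in Adam17ex and 177 ± 36.4 CPM in WT mice (SD, n = 4 each) and no overlap. Among all tested genes 1.36% were called, 0.729% were called lower, and 6.24% had every Adam17ex library below every WT library. Without the 3 shallow Adam17ex PBS libraries the estimate was -1.39 ± 0.35 and no longer passed (edgeR adjusted p = 0.141), and the remaining Adam17ex library, which is not shallow, held 67.7 CPM. Platelet markers, 4 of 5 of them in the table, summed to 10.4 to 48.2 CPM in Adam17ex PBS with Gp9 at 0 and to 4.20 to 43.9 CPM in WT PBS libraries, and acinar markers also overlapped. Endothelial marker sums did not overlap, at 83.8 to 159 CPM in Adam17ex PBS and 53.6 to 61.9 CPM in WT PBS libraries. None of the 3 tested endothelial markers passed. Fibroblast and stellate cell marker sums overlapped, at 427 to 1252 CPM and 193 to 495 CPM. The part of these cell types in the Tuba4a difference was not tested. The other 7 members had estimates between -0.46 ± 0.23 (Tubb4b) and 0.67 ± 0.49 (Tubb6), none of which passed.

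The interaction term asks whether the cerulein effect differed between Adam17ex and WT mice. It passed for Tuba4a at 1.18 ± 0.28 (edgeR adjusted p = 0.0140) and for Tubb5 at -1.43 ± 0.40 (edgeR adjusted p = 0.0350), whereas 6.02% of all tested genes passed, 3.75% with a positive and 2.27% with a negative term. Tuba4a rose in Adam17ex mice (1.12 ± 0.21), from a PBS level lower than in WT mice, and its estimate in WT mice was -0.05 ± 0.19. The Tubb5 estimate was smaller in Adam17ex (0.38 ± 0.30) than in WT mice (1.81 ± 0.26). Among duct markers 3 of 5 tested also had a negative term that passed, and their part was not tested. The Tubb5 call was lost without any 1 of 8 libraries, namely WT PBS replicates 3 and 4, WT cerulein replicates 2 and 3, Adam17ex PBS replicate 3 and Adam17ex cerulein replicates 2 to 4. The largest of these moves came with Adam17ex PBS replicate 3, without which the term was -0.93 ± 0.34 (edgeR adjusted p = 0.134), and for the others the edgeR adjusted p was 0.0590 to 0.0766. The Tuba4a call was lost without Adam17ex cerulein replicate 2 (1.09, edgeR adjusted p = 0.0515) and without the 3 shallow libraries (1.15, edgeR adjusted p = 0.166). For the other members the term lay between -1.47 (Tubb6, edgeR adjusted p = 0.113) and -0.13 (Tuba1c, edgeR adjusted p = 0.884), and none passed. Leaving out Adam17ex PBS replicate 1 gave -1.11 for Tuba1b (edgeR adjusted p = 0.0423), and leaving out replicate 2 gave -1.81 for Tubb6 (edgeR adjusted p = 0.0291).

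In the alpha-tubulin pool the share of Tuba1c differed by treatment in both genotypes, and that of Tuba4a in WT mice only. In Adam17ex mice the Tuba4a shares of the treatments overlapped, and the PBS shares there rest on 51 to 183 alpha-tubulin UMIs per library. Tuba4a supplied 33.8% ± 4.70 of the alpha-tubulin UMIs after cerulein in Adam17ex and 29.2% ± 1.46 in WT mice, and after PBS 37.6% ± 15.1 in Adam17ex and 59.6% ± 9.10 in WT mice (SD, n = 4 each). Tuba1c supplied 36.5% ± 3.01 and 37.1% ± 1.39 after cerulein in Adam17ex and WT mice, and 15.7% ± 4.18 and 13.4% ± 2.86 after PBS in Adam17ex and WT mice. In every cerulein library Tuba1c therefore had a larger share (33.3% or more) than in any PBS library. Among beta-tubulins Tubb4b was the leading gene on average in each group, with 45.0%, 43.8%, 46.1% and 53.8% by group (Adam17ex then WT after cerulein, Adam17ex then WT after PBS), and Tubb5 came next. Tubb6 supplied 15.3% ± 1.05 of beta-tubulin UMIs after cerulein in Adam17ex and 12.7% ± 1.45 in WT mice, and after PBS 8.89% ± 8.31 in Adam17ex and 4.79% ± 1.91 in WT mice. These shares are descriptions with no test, and shares of Tuba1a, Tuba1b and Tuba1c depend on how shared reads were assigned.

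**Figure D3:**
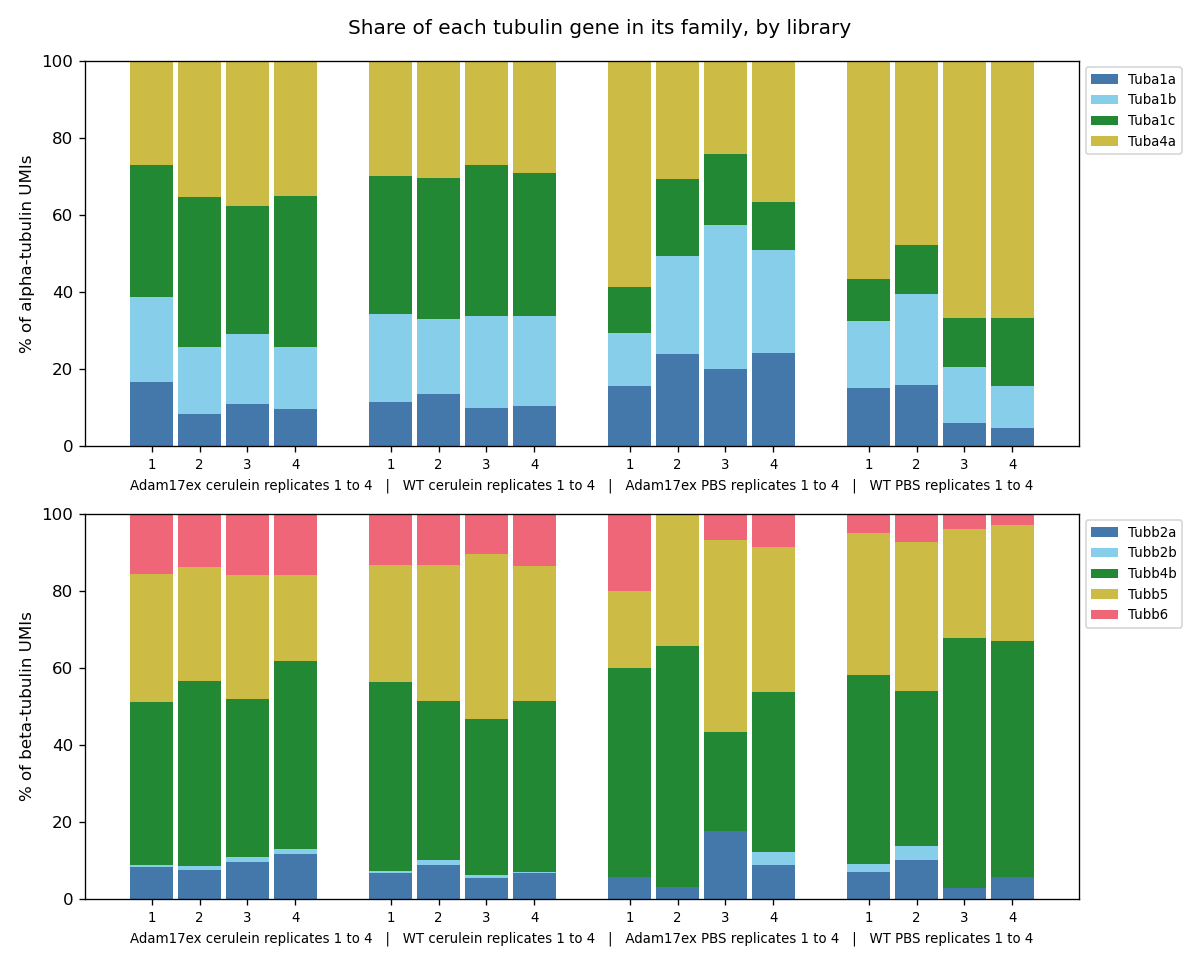
Share of each gene in the alpha-tubulin (upper) and beta-tubulin (lower) UMIs of each library, in % (y axis), with libraries ordered by group and replicate (x axis). Tuba4a takes up to 66.8% of a WT PBS library, and Tuba1c at least 33.3% of every cerulein library.

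The promoters of the members that differed most in pattern are printed next, as 300 bases of RefSeq sequence on GRCm38.p6, 250 before and 50 after the annotated start, read in the direction of transcription. Tuba4a (chr1:75219245-75219544, minus strand) is the member that differed under PBS, Tuba1c (chr15:99029641-99029940, plus strand) rose in both genotypes, and Tubb5 (chr17:35838252-35838551, minus strand) and Tubb4b (chr2:25224653-25224952, minus strand) were lower in Adam17ex under cerulein. Capitals mark matches, on either strand, to the GC box (GGGCGG), the CCAAT box (CCAAT), the TATA box (TATAAA), paired heat shock half-sites (TTCNNGAA or GAANNTTC), the AP-1 motif (TGANTCA), the E box (CACGTG) and the CRE (TGACGTCA).
Tuba4a: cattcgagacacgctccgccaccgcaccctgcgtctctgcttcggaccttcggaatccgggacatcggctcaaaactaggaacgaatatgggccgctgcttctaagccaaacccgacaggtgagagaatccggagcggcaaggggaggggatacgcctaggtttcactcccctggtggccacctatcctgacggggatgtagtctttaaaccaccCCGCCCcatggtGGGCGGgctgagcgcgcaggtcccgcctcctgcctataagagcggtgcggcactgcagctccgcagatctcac
Tuba1c: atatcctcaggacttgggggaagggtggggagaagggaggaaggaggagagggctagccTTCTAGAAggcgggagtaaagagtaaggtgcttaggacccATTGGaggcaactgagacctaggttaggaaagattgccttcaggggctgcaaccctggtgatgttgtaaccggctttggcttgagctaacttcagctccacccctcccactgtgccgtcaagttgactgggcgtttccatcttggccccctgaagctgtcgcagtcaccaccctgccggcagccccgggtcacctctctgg
Tubb5: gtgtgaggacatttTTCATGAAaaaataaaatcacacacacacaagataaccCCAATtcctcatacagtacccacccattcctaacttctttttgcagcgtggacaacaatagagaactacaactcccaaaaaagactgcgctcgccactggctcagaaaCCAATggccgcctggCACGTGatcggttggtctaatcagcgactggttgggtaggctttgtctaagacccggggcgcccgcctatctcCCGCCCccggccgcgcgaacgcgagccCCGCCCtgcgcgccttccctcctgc
Tubb4b: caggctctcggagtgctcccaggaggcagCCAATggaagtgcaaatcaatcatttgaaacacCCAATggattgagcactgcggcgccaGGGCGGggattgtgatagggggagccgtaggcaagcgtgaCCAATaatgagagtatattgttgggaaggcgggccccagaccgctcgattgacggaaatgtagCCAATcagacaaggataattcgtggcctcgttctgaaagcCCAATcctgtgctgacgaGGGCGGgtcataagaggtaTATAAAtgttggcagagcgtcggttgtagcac
Tuba4a held 2 GC boxes, at -35 and -23 from the start, and none of the other motifs. Tuba1c held a heat shock pair at -191 and a CCAAT box at -151, and no GC box. Tubb5 held a heat shock pair at -236, CCAAT boxes at -198 and -90, an E box at -75 and GC boxes at -2 and 26. Tubb4b held 5 CCAAT boxes, GC boxes at -162 and -1 and a TATAAA at 19, downstream of the annotated start. No match overlapped a match to another motif. Such matches are frequent: among 32851 RefSeq promoters of the same length, 35.7% held the GC box, 37.4% CCAAT, 13.6% TATAAA, 15.1% a heat shock pair, 7.81% the AP-1 motif, 7.15% the E box and 1.79% the CRE. Promoters of 7 of the 9 members were examined, and the matches describe letters, not bound sites.

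Within groups some members varied with markers of other cell types. Replicate 3 of Adam17ex PBS, with the highest macrophage and fibroblast markers of its group, had the highest Tuba1a, Tuba1b, Tuba1c, Tubb2a and Tubb5 of its group, and its Tubb4b was the lowest with that of replicate 4. After removing group means, the correlation over 16 libraries between log2 levels and the summed macrophage markers was 0.84 for Tubb2a, 0.81 for Tuba1b, 0.78 for Tuba1a and 0.73 for Tubb5, but -0.77 for Tubb4b, -0.21 for Tuba4a, 0.22 for Tubb6 and 0.38 for Tuba1c. Without that library, over 15 libraries, the values were 0.71 for Tubb2a, 0.66 for Tuba1b, 0.79 for Tuba1a, 0.49 for Tubb5, -0.81 for Tubb4b and -0.02 for Tuba1c. Macrophage markers were not alone in this. Over the 16 libraries, fibroblast and stellate markers gave 0.81 for Tubb2a, 0.79 for Tuba1b and -0.71 for Tubb4b. Lymphocyte markers gave 0.73 for Tuba1a and -0.81 for Tubb4b, and acinar markers -0.67 for Tuba1b and 0.65 for Tubb4b. Islet markers gave only -0.18 (Tubb6) to 0.32 (Tuba4a). The points share library depth and scaling, and these correlations are descriptions. Macrophage markers, all 7 of which were counted in each group, summed to 105 to 182 CPM in Adam17ex cerulein, 118 to 192 CPM in WT cerulein, 148 to 1003 CPM in Adam17ex PBS and 61.9 to 379 CPM in WT PBS libraries. In Adam17ex mice 4 of 5 tested macrophage and 4 of 5 tested fibroblast markers were lower after cerulein, where 16.2% of all tested genes were lower. Islet markers were also lower there for 7 of 8 tested, at 1753 to 6151 CPM after cerulein and 5069.6 to 22086 CPM after PBS, and adipocyte markers for 4 of 5, at 16.3 to 497 CPM after cerulein, with Lep at 0, and 80.6 to 1159 CPM after PBS. The part of these cell types in the smaller changes of Tuba1a, Tuba1b, Tubb2a and Tubb5 was not tested.

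**Figure D4:**
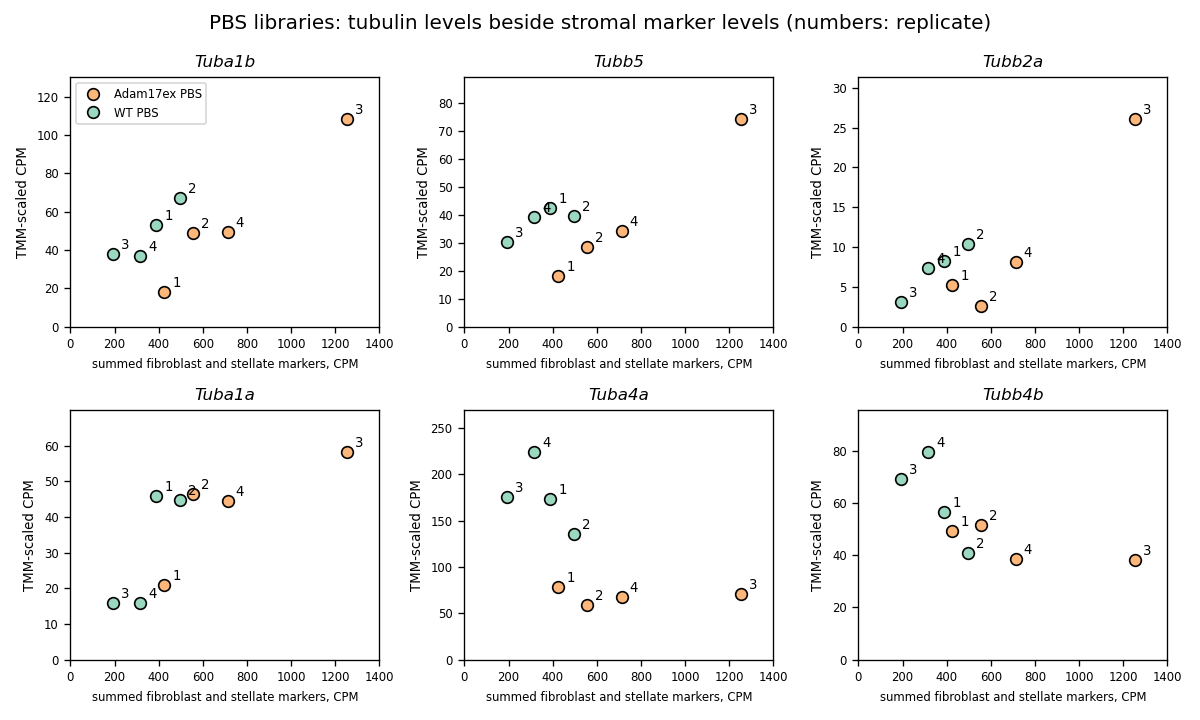
Level of 6 tubulin genes (y axes, TMM-scaled CPM) against the summed level of 7 fibroblast and stellate cell markers (x axes, CPM) in the PBS libraries, numbered by replicate. Adam17ex PBS replicate 3, at 1252 CPM of markers, is the highest library for Tuba1b, Tubb5, Tubb2a and Tuba1a and the lowest for Tubb4b.

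The table held 10 further tubulin rows, of which Tuba8, a divergent alpha isotype, was the only one tested. Tuba8 was counted 9, 6, 3 and 20 times in Adam17ex cerulein, 13, 26, 27 and 31 times in WT cerulein, 1, 0, 1 and 2 times in Adam17ex PBS, and 2, 2, 1 and 1 times in WT PBS libraries. Cerulein libraries were above PBS libraries in each genotype. It rose by 2.21 ± 0.57 in Adam17ex (edgeR adjusted p = 0.00541) and by 3.89 ± 0.43 in WT mice (edgeR adjusted p = 2.30e-07), from counts so low under PBS that the size is imprecise. Under cerulein it was lower in Adam17ex than in WT mice, at -1.13 ± 0.32 (edgeR adjusted p = 0.0254). No PBS library reached the minimum count of 10, so Tuba8 was tested only through its cerulein libraries, chiefly the WT ones. These Tuba8 results draw on the libraries that let it be tested, and they are descriptions rather than independent support. Tubb3, Tubb4a, Tubd1, Tube1, Tubg1 and Tubg2 and the pseudogenes Tubb4b-ps1, Tubb4b-ps2 and Tubb2a-ps2 had at most 12 UMIs in any group and were not tested.

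Tubulin folding genes were examined next, since new tubulin must pass through the chaperonin TRiC (subunits Tcp1 and Cct2 to Cct8) and the tubulin cofactors before it can form dimers. Of 24 tested folding genes, cerulein raised 6 and lowered 2 in Adam17ex mice, and raised 10 and lowered 3 in WT mice, with medians of 0.24 and 0.46 against -0.03 and -0.04 for all genes. These are 25.0% higher and 8.33% lower in Adam17ex mice, where 14.1% and 16.2% of all tested genes were, and 41.7% higher and 12.5% lower in WT mice, where 19.8% and 21.3% were. Cct4 averaged 97.3 ± 6.59 CPM in Adam17ex cerulein, 129 ± 16.8 CPM in WT cerulein, 48.6 ± 14.3 CPM in Adam17ex PBS and 50.8 ± 9.67 CPM in WT PBS (SD, n = 4 each). It rose by 0.99 ± 0.20 in Adam17ex (edgeR adjusted p = 0.000856) and by 1.37 ± 0.19 in WT mice (edgeR adjusted p = 5.39e-06). Cct8 rose by 0.70 ± 0.21 and 1.14 ± 0.19 in Adam17ex and WT mice, and Cct7 by 0.64 ± 0.16 and 0.41 ± 0.15. The members that fell were Tbcel and Arl2 in Adam17ex mice, and Vbp1, Pfdn5 and Pdcl in WT mice. Tbcel, which in cultured cells destabilises tubulin, had a log2 fold change of -1.38 ± 0.34. Between genotypes under cerulein only Vbp1, a prefoldin subunit, passed (1.10 ± 0.34, edgeR adjusted p = 0.0396).

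Genes of the mRNA autoregulation list (the TTC5 pathway and the CCR4-NOT deadenylase) were all tested. None of the 12 passed in WT mice, and Cnot10 (-0.94 ± 0.35, edgeR adjusted p = 0.0430) and Cnot7 (-0.89 ± 0.33, edgeR adjusted p = 0.0473) fell in Adam17ex mice. These 2 are 16.7% of the list, close to the 16.2% of all tested genes that fell. Genes of microtubule dynamics moved in both directions. Of 23 tested, cerulein raised 6 and lowered 2 in Adam17ex and raised 7 and lowered 3 in WT mice. The called share was 34.8% in Adam17ex mice, against 30.3% of all tested genes, and 43.5% in WT mice, against 41.1%. The lowered genes were Map2 and Mapre2 in Adam17ex mice, and Mapre2, Fign and Camsap3 in WT mice. Map4, which encodes the main microtubule-associated protein of non-neuronal cells, averaged 27.8 ± 3.00 CPM in Adam17ex cerulein, 51.5 ± 7.34 CPM in WT cerulein, 14.8 ± 3.37 CPM in Adam17ex PBS and 9.14 ± 2.07 CPM in WT PBS. It rose by 0.98 ± 0.26 in Adam17ex (edgeR adjusted p = 0.00740) and 2.46 ± 0.24 in WT mice (edgeR adjusted p = 2.56e-08), and the interaction passed at -1.49 ± 0.37 (edgeR adjusted p = 0.0187). Gas2l1, a linker of actin and microtubules, rose by 1.32 ± 0.29 in Adam17ex and 2.34 ± 0.26 in WT mice. Under cerulein 2 of the 23 were higher in Adam17ex (Mapre2 and Clasp2) and 3 lower (Map4, Mapre1 and Map1lc3b), or 21.7% against 9.70% of all tested genes.

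**Figure D5:**
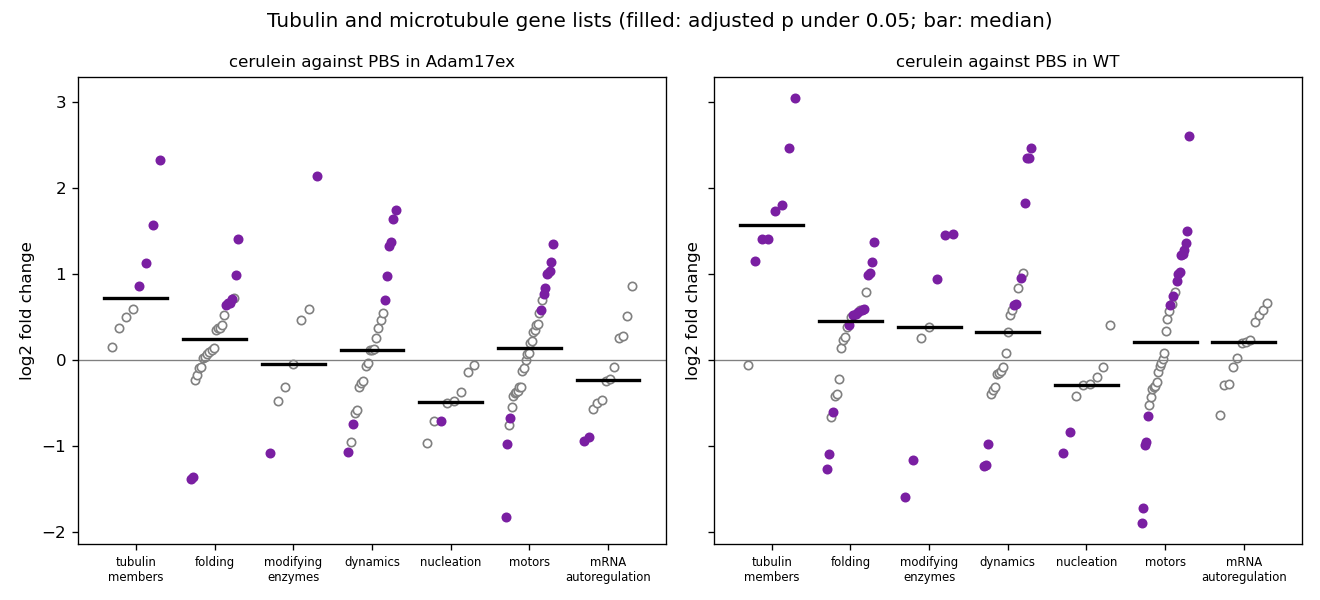
Log2 fold change of cerulein against PBS (y axis) for every tested gene of 7 tubulin and microtubule lists (x axis) in Adam17ex (left) and WT mice (right), filled where edgeR's adjusted p was under 0.05, with the list median as a bar. The tubulin members have medians of 0.72 in Adam17ex and 1.57 in WT mice, and the medians of the other 6 lists plotted lie between -0.48 and 0.46.

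Of 7 tested enzymes that modify tubulin, cerulein raised 1 and lowered 1 in Adam17ex mice and raised 3 and lowered 2 in WT mice. In Adam17ex mice 14.3% of the list was higher and 14.3% lower, close to the shares of all tested genes (14.1% higher and 16.2% lower). In WT mice 42.9% of the list was higher and 28.6% lower, against 19.8% and 21.3% of all tested genes. The genes raised in WT mice were Svbp, Ttll4 and Ttll7, and those lowered Agtpbp1 and Sirt2. Ttll7, a polyglutamylase, rose by 2.13 ± 0.36 in Adam17ex (edgeR adjusted p = 0.000132) and by 0.94 ± 0.35 in WT mice (edgeR adjusted p = 0.0344), and under cerulein it was higher in Adam17ex than in WT mice by 1.22 ± 0.28 (edgeR adjusted p = 0.00674). Agtpbp1, which removes glutamates from tubulin tails, fell in Adam17ex by 1.08 and in WT mice by 1.59 on the log2 scale. Svbp, the partner of the enzymes that remove the terminal tyrosine, was lower in Adam17ex than in WT mice under cerulein (-1.15 ± 0.34, edgeR adjusted p = 0.0348). Motor genes were the largest list, with 7 of 32 tested higher and 3 lower in Adam17ex and 11 higher and 5 lower in WT mice. The called share was 31.2% in Adam17ex mice, close to the 30.3% of all tested genes, and 50.0% in WT mice, against 41.1%. The lowered genes were Dynll2, Kif21a and Dynlrb1 in Adam17ex mice, and Dynll2, Kif21a, Kif13b, Dynlt3 and Dctn5 in WT mice. The dynein light chain genes Dynll1 and Dynll2 moved in opposite directions in both genotypes: Dynll1 rose by 1.14 ± 0.21 in Adam17ex and 1.50 ± 0.20 in WT mice, and Dynll2 had log2 fold changes of -1.83 ± 0.24 and -1.89 ± 0.23. Kif21a, a kinesin that limits microtubule growth, fell less in Adam17ex (-0.68 ± 0.21) than in WT mice (-1.72 ± 0.21), and the interaction passed at 1.04 ± 0.29 (edgeR adjusted p = 0.0353). Of 8 tested nucleation genes, Akap9 was lower after cerulein in both genotypes and Pcnt in WT mice, and none was higher, so that 12.5% of the list fell in Adam17ex and 25.0% in WT mice, against 16.2% and 21.3% of all tested genes. The 13 mitosis genes were too low to test, with 83 UMIs summed over the Adam17ex and 46 over the WT libraries of the cerulein groups, and 118 over the Adam17ex and 60 over the WT libraries of the PBS groups. Replicate 3 of Adam17ex PBS alone held 50 of the 118.

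Across the 16 libraries, the tested gene outside the family most like each member in log2 level was Ywhaz for Tuba1c (Pearson r = 0.977), Zfand2a for Tubb4b (0.974), Pnp for Tubb6 (0.951), Hsp25-ps1 for Tubb5 (0.947), Arpc1b for Tuba1b (0.946), Psat1 for Tuba4a (0.945), Frmd8 for Tubb2a (0.938) and Serpinh1 for Tuba1a (0.896). These values are highest of 8228 genes and include the difference between treatments. With group means removed they were 0.723 for Ywhaz, 0.772 for Zfand2a, 0.817 for Pnp, 0.769 for Hsp25-ps1, 0.850 for Arpc1b, 0.684 for Psat1, 0.850 for Frmd8 and 0.796 for Serpinh1. Within the family the most alike pair was Tuba1b and Tubb5, an alpha and a beta gene (r = 0.907, and 0.807 with group means removed), and the least alike was Tuba1a and Tuba4a (-0.06).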

How the data were processed

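The deposited counts are UMI counts made by the authors, whole numbers per gene and library for 24019 genes with no normalization, per the file headers. Per the labels' protocols, 30 ng of total RNA was primed at the poly(A) tail with a UMI of 10 bp and sequenced in the sense direction. Per the submitters' processing notes, the builds were GRCm38 and mm10 and the tools included edgeR 3.36.0 and limma 3.50.0 under R 4.1.2. The aligner and the treatment of multiply matching reads were not given in the sources used here.

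Counts were analysed with edgeR 4.0.16 in R 4.3.3. Genes passing filterByExpr (minimum count 10) were kept, 8236 in all and 8 of the 9 tubulin genes, and scaled by TMM. A quasi-likelihood model with 1 coefficient per group and sex as covariate was fitted to all 16 libraries (11 residual degrees of freedom). Calls had a Benjamini-Hochberg adjusted p under 0.05 over all tested genes, the SE is the log2 fold change divided by the root of its F, and fold changes are adjusted for sex. The steps were run on counts simulated from the real means with changes put in, for every comparison except the interaction term. Those counts held no sex effect and no library standing apart, so the check covers neither these nor the interaction. Its outcome is not given here and is not used as support. Genes that could be named are the 9 members, up to 4 genes with the smallest p per list and comparison, and the gene most correlated with each member. Other genes named because they make up a count of 5 or fewer were chosen after their values were seen, and 1 list gene is not reported here. Members and lists were chosen with earlier results of these data known. Alternatives comprised upper-quartile and RLE factors, TMM factors computed without digestive enzyme genes, other count filters, no sex covariate, DESeq2 1.42.0, a replicate block, each library left out, thinning to equal depth, and leaving out sets of 3 and 5 libraries, the last chosen after seeing the data. The 24 pairs of libraries within groups differed by more than sampling noise (chi-square per degree of freedom 3.06 to 9.50). In the shallowest library 1 UMI equals 2.20 CPM before TMM scaling, so levels of a few CPM rest on single molecules, and depth limits the precision of low genes.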

Additional observations from a re-analysis of the deposited data

Results flagged for a closer look

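Tuba1c in WT PBS had 1 library far from the others, replicate 4 at 58.8 CPM, with the other 3 at 32.9 to 35.7 CPM. Tubb2b in Adam17ex PBS had 1 library, replicate 4, at 3.03 CPM from 3 UMIs and none in the other 3 libraries, which were 455547 to 492878 UMIs deep. Replicate 4 was deeper, at 1009634 UMIs. Of 36 sets of 4 libraries screened for a library that stands apart, these 2 passed, and chance flags about 1 in 20 where values are continuous. That rate does not apply to Tubb2b, since any count in 1 library beside 3 libraries at 0 passes the screen.

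The cerulein effect differed between Adam17ex and WT mice in the interaction term for Tubb5 (-1.43, edgeR adjusted p = 0.0350) and Tuba4a (1.18, edgeR adjusted p = 0.0140). Tubb5 rose in WT mice with 4 of 4 cerulein libraries above every PBS library, and in Adam17ex mice the treatments overlapped. Tuba4a showed the opposite arrangement, with no overlap in Adam17ex mice.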

How the results depend on the processing

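Each result was recomputed under 27 alternatives, of which 1 was chosen after seeing the data. Of the 432 recomputed values of the 16 member results that passed, 417 kept direction and side of the threshold, 15 lost the threshold and 0 changed direction. The lost ones were the interaction of Tubb5 (10 alternatives) and Tuba4a (2), Tuba4a under PBS (1, without the 3 shallow libraries), and Tubb4b (0.72, edgeR adjusted p = 0.0506) and Tubb6 (1.57, edgeR adjusted p = 0.0657) for cerulein in Adam17ex mice without the 5 libraries richest in adipocyte and lymphocyte markers. Tubb6 and Tuba1b under cerulein, which missed the threshold between genotypes, passed in 10 and 5 alternatives. DESeq2 gave no adjusted p for Tubb2a and Tubb6 between genotypes under PBS.

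For cerulein in Adam17ex mice 2493 genes were called, 1360 without the 3 shallow libraries, 1540 with counts thinned to equal depth, 1441 without the 5 libraries and 2022 to 2615 with any 1 library left out, and called members were 4 to 7. For cerulein in WT mice 3388 genes were called, 2161 when thinned and 2919 to 3555 with any 1 library left out, and members stayed at 7. For genotype under cerulein 799 genes were called, 429 when thinned and 402 (without WT cerulein replicate 1) to 913 with 1 library left out. Called members there were 4 with no count filter, 4 without the shallow libraries and 2 to 4 with 1 library left out. For genotype under PBS 112 genes were called, 331 with no filter, 406 without the sex covariate, 232 by DESeq2, 230 with a replicate block, 15 without the shallow libraries, 50 without the 5 and 30 to 370 with 1 left out, and called members fell to 0 without the shallow libraries and were 1 with any single library left out. For the interaction 496 genes were called, 152 without the shallow libraries, 291 when thinned, 254 without the 5 and 239 to 624 with 1 left out. Called members there were 0 without the shallow libraries, 1 without the 5 and 0 to 3 with 1 left out. Fewer libraries or counts enter the left-out and thinned fits, and the other causes were not tested.

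Only estimates that did not pass changed sign. These were Tuba4a for cerulein in WT mice (0.00483 at a minimum count of 20, 0.029 when thinned, -0.18 to 0.11 with 1 library left out) and Tuba1a for cerulein in Adam17ex mice (-0.016 when thinned). Between genotypes under PBS, Tuba1b was -0.000360 without the shallow libraries, -0.14 without the 5 and -0.25 to 0.35 with 1 left out, Tubb2a was -0.28 without the 5 and -0.24 to 0.79 with 1 left out, and Tubb5 was -0.060 with no filter, -0.15 without the shallow libraries, -0.45 without the 5 and -0.35 to 0.22 with 1 left out. The Tuba1c interaction was 0.00182 with no filter, 0.36 without the shallow libraries, 0.39 without the 5 and -0.33 to 0.22 with 1 left out. Other scalings moved the median of all genes by at most 0.03.

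Correlations of same-numbered libraries across groups ran from -0.224 to 0.240. Differently numbered libraries were not compared, so whether the replicate numbers pair the samples cannot be judged from these values. With a replicate block no member gained or lost a call. Depth limits Tubb2b, Tubb2a, Tubb6 and Tuba8 under PBS, where single libraries held 0 to 14 of their UMIs.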
